A study of Mus musculus with 6 samples.

Results

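The heat shock and small chaperone genes Hspa1a, Hspa1b, Hspa8, Hsp90aa1, Hspb1, Hspb6, Hspb7, Hspb8, Cryab and Bag3 were followed in the gastrocnemius, a calf muscle, of aged mice. They are 10 of the 23238 gene symbols in the count tables and were chosen by symbol. The farnesol group (n = 3) and the vehicle group (n = 3) both came from wild-type C57/BL6J animals aged 26 months. Farnesol, a sesquiterpene alcohol, was given by mouth at 350 mg/kg for 30 days, and the vehicle was saline with 5% DMSO over the same time. The sample titles call the libraries of each group biological replicates. That no mouse gave more than 1 library is not spelled out. If any did, the p-values would rest in part on technical spread.

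Small heat shock proteins bind unfolding proteins without using ATP and hold them in a state from which they can be refolded or removed. HSP70 chaperones refold such clients with ATP, HSP90 completes the folding of kinases and receptors, and the cochaperone BAG3 joins HSP70 to HSPB8 and hands damaged filamin to autophagy. In striated muscle several small heat shock proteins are abundant without stress and sit at Z-discs and desmin filaments. Heat shock factor 1 switches on the inducible members through repeats of the letters GAA and TTC in their promoters.

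Farnesol was set against vehicle to ask how far these chaperone transcripts differ after feeding. No difference was detected in any of the 10: by edgeR's quasi-likelihood test, 0 of 10 had an adjusted p under 0.05, as had 0% of the 11674 genes tested. DESeq2 and limma-voom also called 0 of the 10. Likewise 0 of 10 had an unadjusted p under 0.05, against 3.01% of all genes tested. In 0 of 10 were the farnesol values separate from the vehicle values, against 8.82% of all genes tested. Several intervals were narrow: Bag3 stood at 0.999-fold in farnesol over vehicle (95% interval 0.809 to 1.23), Hspa8 at 1.0015-fold (0.807 to 1.24) and Cryab at 0.992-fold (0.786 to 1.25).

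The promoters are shown because heat shock factors act through them. RefSeq's promoter table (GRCm38.p6, 250 bases before to 50 after each start) held 8 promoters of 7 of the genes; Hspa8, Hsp90aa1 and Cryab had no entry. The letters GAANNTTC, which read the same on both strands, stood in 6 of these 8 promoters, against 7.86% of the 32851 promoters of this length. The inverse order TTCNNGAA, also the same on both strands, stood in 0 of the 8, against 8.52%. Each match is given below with 16 bases on either side where the promoter reaches that far, 5′ to 3′ on the gene's strand, with GAANNTTC in capitals.
Hspa1a, chr17:34972237-34972276, minus strand: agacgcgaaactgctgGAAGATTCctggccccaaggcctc
Hspa1b, chr17:34959319-34959358, minus strand: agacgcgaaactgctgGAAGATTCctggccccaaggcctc
Hspb1, chr5:135887786-135887825, plus strand: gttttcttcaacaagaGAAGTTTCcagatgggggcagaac
Hspb1, chr5:135887806-135887845, plus strand: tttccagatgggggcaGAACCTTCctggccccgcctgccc
Hspb6, chr7:30553165-30553204, plus strand: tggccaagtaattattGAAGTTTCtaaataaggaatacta
Hspb8, chr5:116422839-116422878, minus strand: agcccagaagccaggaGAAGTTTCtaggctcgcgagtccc
Bag3, chr7:128523609-128523632, plus strand: tctctggatgggaccaGAAGTTTC
The windows of Hspa1a and Hspa1b are the same. Hspb1, Hspb6, Hspb8 and Bag3 share the letters GAAGTTTC, singled out after the promoters were seen, which 1.21% of all promoters of this length hold on either strand. In Hspa1a, Hspa1b, Hspb1 and Hspb6 the match begins 97 to 120 bases before the start, and in Hspb8 and Bag3 at bases 3 and 43 of the transcript. The Hspb6 match lies at the downstream of its 2 listed starts. Hspb7 had no match in its window.

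The libraries held 9895700 to 12707751 counts, of which the 10 genes took 0.593% to 0.849% after farnesol and 0.532% to 0.855% after vehicle. The skeletal muscle markers were high in every library, with Ckm, the muscle creatine kinase, at 10089 to 13218 CPM after farnesol and 8970 to 12972 CPM after vehicle (CPM, with library sizes adjusted by TMM factors in edgeR). Myh4, the fast myosin of type IIB fibres, stood at 42054 to 53831 CPM after farnesol and 42551 to 62237 CPM after vehicle. The ribosomal precursor Rn45s took 4.97% of farnesol replicate 1 and 9.92% to 15.4% of the other 5 libraries. In farnesol replicate 1 the deviation of a gene from its mean also fell with transcript length (Spearman −0.245 across 11244 genes, which are not independent, against 0.0195 to 0.0952 in the other 5 libraries). Fewer cells of a type and less RNA per cell cannot be told apart in whole muscle.

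Levels between genes were compared per kilobase of the longest annotated transcript. The small heat shock proteins led: Hspb6 averaged 1290 ± 226 CPM per kb after farnesol and 1147 ± 80.7 after vehicle (SD, n = 3 each, as in all such values here), and Cryab 1178 ± 120 and 1186 ± 193. Hspb1 followed at 794.8 ± 73.7 CPM per kb after farnesol and 946 ± 246 after vehicle, and Hspb8 at 833 ± 99.9 and 878 ± 162. Each of these 4 exceeded 99.6% of tested genes with a known length, and their 6-library ranges overlapped from Hspb6 (1054 to 1505) down to Hspb8 (692 to 985), except that Hspb6 did not overlap Hspb8. Well below came the constitutive Hspa8 at 124.1 ± 10.1 CPM per kb after farnesol and 123.9 ± 16.5 after vehicle, Hspb7 at 81.9 ± 39.2 and 87.3 ± 6.71, and Bag3 at 66.2 ± 3.42 and 66.2 ± 5.49. Hspb7 overlapped both Hspa8 and Bag3 in its range of 52.5 to 126.4 CPM per kb. The lowest 3 did not overlap: Hsp90aa1 at 21.0 to 31.4, Hspa1a at 3.27 to 4.74 and Hspa1b at 0.217 to 1.88 CPM per kb over the 6 libraries. These libraries read tags near the 3′ end, so counts are not meant to grow with transcript length, which was not tested here. Dividing by length then raises short transcripts such as Hspb1 (930 bases) and Cryab (1117 bases) over longer ones. The order by CPM alone was Hspb6, Hspb8, Cryab, Hspb1, Hspa8, Hspb7, Bag3, Hsp90aa1, Hspa1a and Hspa1b. By CPM, Hspb6 (2087 to 2980) lay above Hspb8 (1257 to 1789), which overlapped Cryab (1079 to 1484). Hspb1 (617 to 1020) lay below Cryab.

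**Figure D1:**
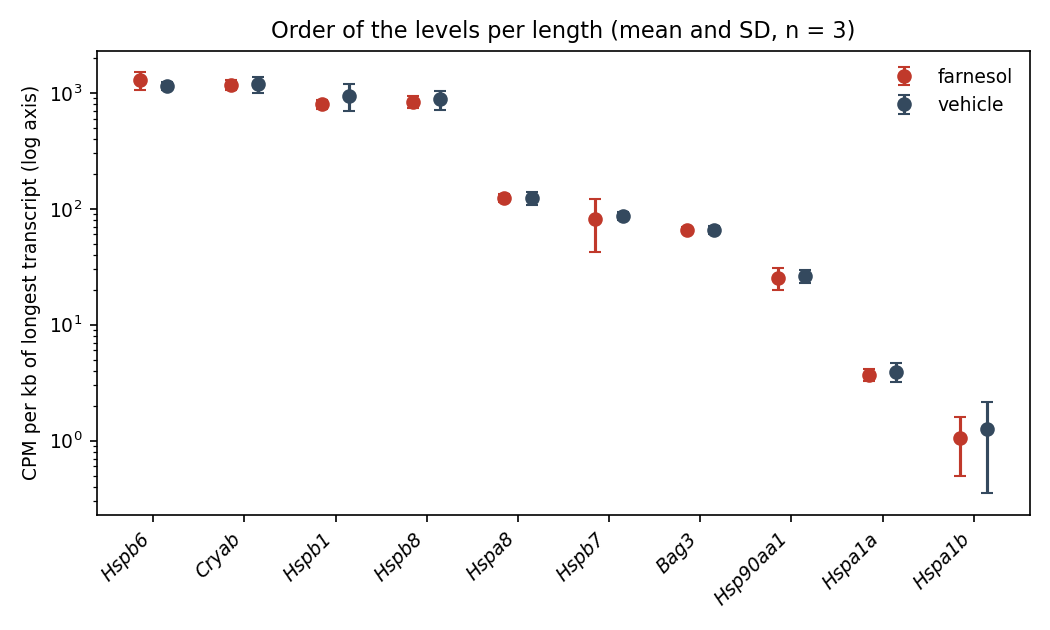
Mean and SD of CPM per kb of the longest transcript (log axis) for each gene in 3 farnesol (red) and 3 vehicle (dark) libraries, in falling order. Hspb6, Cryab, Hspb1 and Hspb8 sit together between 856 and 1219 CPM per kb on average, and Hspa1a and Hspa1b lie at 3.82 and 1.15 on average over the 6 libraries. By CPM alone Hspb6 stands apart and Hspb8 comes next.

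Hspb6 encodes HSP20, a small heat shock protein that is abundant in muscle and is phosphorylated by protein kinase A. It stood at 2980, 2087 and 2594 CPM after farnesol, against 2358, 2088 and 2370 CPM after vehicle. The 2 highest values were farnesol replicates 1 and 3, while farnesol replicate 2 was level with the lowest vehicle library. The log2 fold change, farnesol over vehicle, was 0.17 (SE 0.17, edgeR adjusted p = 0.99999), a 1.12-fold difference with an interval of 0.884 to 1.43. This was the largest positive fold change of the 10 genes. In the annotation its gene overlaps Proser3 by 122 bases and Lin37 by 3 bases on the opposite strand.

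Hspb1 encodes HSP25, the mouse counterpart of human HSP27, which binds unfolding proteins and actin filaments. Its CPM was 776, 781.5 and 660.1 after farnesol, against 1004, 617 and 1020 after vehicle. All 3 farnesol libraries lay below vehicle replicates 1 and 3 and above vehicle replicate 2, so the groups overlapped. The log2 fold change was −0.25 (SE 0.18, edgeR adjusted p = 0.99999), a fold of 0.84 (0.65 to 1.09). Without vehicle replicate 2 it was −0.45 (edgeR adjusted p = 0.998), and without vehicle replicate 3 it was −0.13.

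Set against each other within a library, Hspb6 over Hspb1 gave a CPM ratio of 3.84, 2.67 and 3.93 after farnesol, against 2.35, 3.38 and 2.32 after vehicle. Farnesol replicates 1 and 3 had the highest ratios and vehicle replicates 1 and 3 the lowest. Replicate 2 of each group fell between them, with the vehicle library above the farnesol one, and this pair was chosen after its values were seen.

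Hspb8 encodes HSP22, the small heat shock partner of BAG3. Its CPM was 1642, 1306 and 1592 after farnesol, against 1789, 1257 and 1738 after vehicle, and replicate 2 was the lowest library of each group. The log2 fold change was −0.08 (SE 0.17, fold 0.949, interval 0.744 to 1.21). Cryab, the alpha-B crystallin that protects desmin filaments, had the same shape: 1438, 1172 and 1337 CPM after farnesol, against 1413, 1079 and 1484 CPM after vehicle. Its log2 fold change was −0.01 (SE 0.16). The annotation places Hspb2 over 1030 bases of the Cryab gene on the opposite strand, and whether strand was kept in counting is not stated.

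Hspb7 encodes a small heat shock protein of heart and skeletal muscle that binds filamin C. It was the gene of this group with the widest spread among farnesol libraries relative to vehicle ones, at 145.3, 349.9 and 185 CPM after farnesol, against 262, 238 and 225 CPM after vehicle. Farnesol replicates 1 and 3 lay below every vehicle library and farnesol replicate 2 above them all. The coefficient of variation was 47.8% after farnesol and 7.69% after vehicle, and the log2 fold change was −0.09 (SE 0.28, fold 0.939, interval 0.607 to 1.45). Without farnesol replicate 2 it was −0.55 (edgeR adjusted p = 0.997), and without farnesol replicate 1 it was 0.15.

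Farnesol replicate 2 was also the library with most slow fibre marker RNA. The 10 slow fibre markers, such as the slow myosin Myh7, summed to 2090, 3160 and 2089 CPM after farnesol, against 2180, 2274 and 1656 CPM after vehicle, and none was at 0. Hspb7 correlated with this sum over the 6 libraries at Pearson's r = 0.62 (exact permutation p = 0.153, adjusted over the 10 members 0.518) and Spearman's rho = 0.75 (exact permutation p = 0.111, adjusted 0.37). Without farnesol replicates 1 and 2, the libraries farthest from the Hspb7 median, r was 0.19, so its size depends on those libraries. The few libraries left span a narrower Hspb7 range, so this lower r cannot decide whether a relation holds. With each group centred on its mean, r was 0.84. The relation of Hspb7 to the slow fibre sum was looked at after the values were seen, and the part of fibre content in the Hspb7 values was not tested. Hspb7 was the only one of the 10 with a positive r. The most negative were Hspb8 (r = −0.69, exact permutation p = 0.108, adjusted 0.518) and Cryab (−0.67, exact permutation p = 0.156, adjusted 0.518). By rho, Cryab stood at −0.84 (exact permutation p = 0.0444, adjusted 0.361) and Hspb6 at −0.81 (exact permutation p = 0.0722, adjusted 0.361). Without farnesol and vehicle replicate 2, r was −0.66 for Cryab and −0.22 for Hspb8, so the size of the Hspb8 value depends on those libraries. With each group centred on its mean, r was −0.75 for Cryab and −0.70 for Hspb8.

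**Figure D2:**
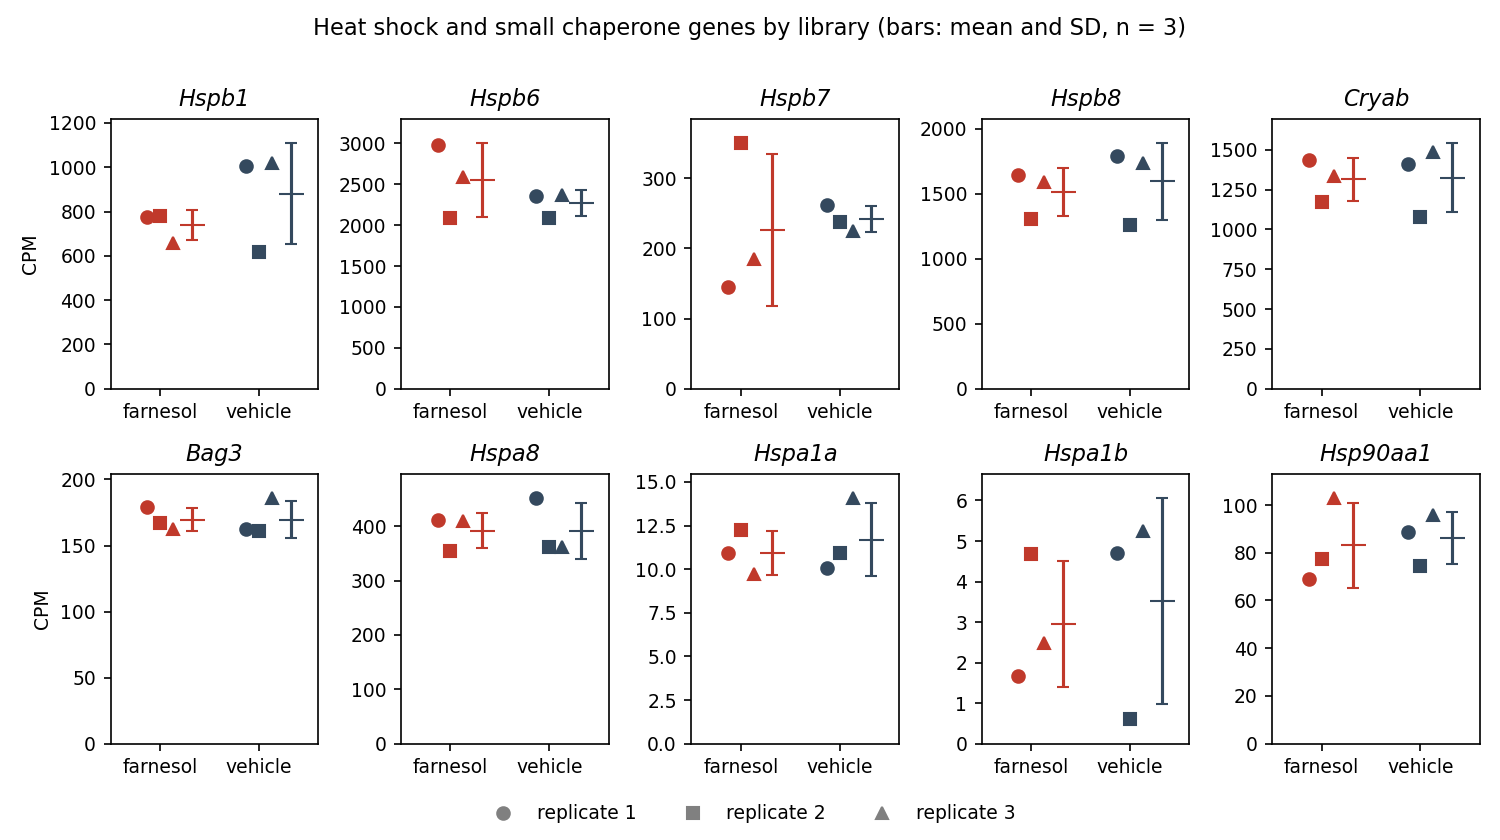
CPM of each gene by library, farnesol (red, left) and vehicle (dark, right), each symbol a replicate number and each bar the mean with SD (n = 3). The groups overlap in all 10 genes, with Hspb7 spread from 145 to 350 CPM after farnesol and from 225 to 262 CPM after vehicle.

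Bag3, the cochaperone that joins HSP70 to HSPB8, was the steadiest member. It stood at 179, 167 and 162 CPM after farnesol, against 162, 161 and 186 CPM after vehicle. The group means were 169.5 ± 8.77 and 169.7 ± 14.1 CPM, and the log2 fold change was 0.00 (−0.0014, SE 0.15). No library left the range of 161 to 186 CPM.

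Among HSP70 genes, Hspa8 encodes the constitutive HSC70, the main cytosolic HSP70 of unstressed cells. It stood at 411, 355 and 409.7 CPM after farnesol, against 452, 361 and 362 CPM after vehicle, a log2 fold change of 0.00 (0.0022, SE 0.15). The lowest value was farnesol replicate 2 and the highest vehicle replicate 1.

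Hspa1a and Hspa1b encode nearly the same stress-inducible HSP70 and lie side by side on chromosome 17 (34969359 to 34972156 and 34956429 to 34959238, GRCm38.p6). Hspa1a was at 10.9, 12.2 and 9.70 CPM after farnesol, against 10.1, 10.9 and 14.1 CPM after vehicle, from 94 to 166 counts per library. The annotation places the protein-coding Gm20481, for which no counts were listed, over 2225 bases of the Hspa1a gene on the opposite strand. Hspa1b held 19, 56 and 24 counts after farnesol, against 49, 6 and 62 counts after vehicle. Vehicle replicate 2 was thus far below the other libraries for Hspa1b, and its 95% fold interval of 0.348 to 2.01 was the widest of the 10 genes. The log2 fold changes were −0.09 (SE 0.27) for Hspa1a and −0.26 (SE 0.60) for Hspa1b.

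The copies can share reads: 58.8% of the 50-base windows of the longest Hspa1a transcript occur in that of Hspa1b, but 0% of those in its last 500 bases, where 3′ tags are meant to fall. How reads with several matches were counted is not stated. Summed into 1 gene before the fit, the pair stood at 12.6, 16.9 and 12.2 CPM after farnesol, against 14.8, 11.5 and 19.3 CPM after vehicle. The summed log2 fold change was −0.13 (edgeR adjusted p = 0.9999). Their neighbour Hspa1l, the HSP70 best known from testis, had 20.1, 24.2 and 21.2 CPM after farnesol, against 27.1, 20.8 and 20 CPM after vehicle. It was chosen after its values were seen, and 9.57% of its 50-base windows occur in Hspa1a.

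Hsp90aa1 encodes the inducible cytosolic HSP90. It stood at 68.8, 77.6 and 102.9 CPM after farnesol, against 88.6, 74.4 and 95.9 CPM after vehicle. The highest and the lowest library were both farnesol ones, and the log2 fold change was −0.06 (SE 0.17, fold 0.962, interval 0.75 to 1.23).

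**Figure D3:**
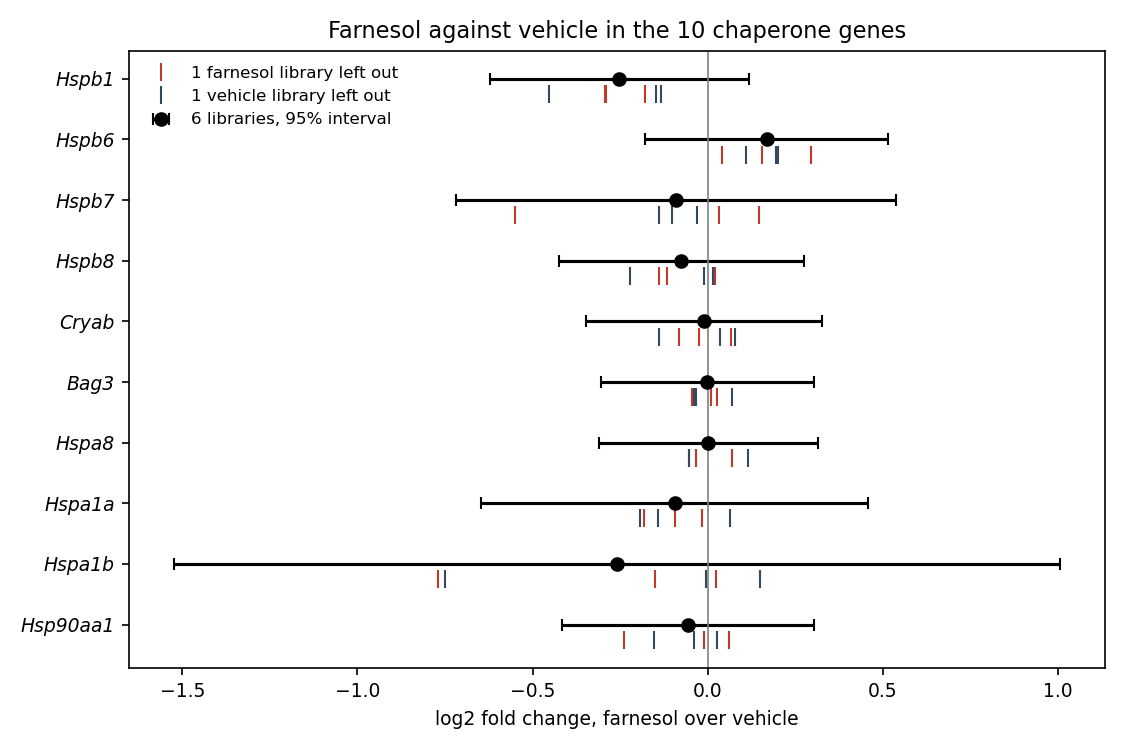
Log2 fold change, farnesol over vehicle, of each gene with its 95% interval (black), and the same value with 1 farnesol (red ticks) or 1 vehicle (dark ticks) library left out. Every interval includes 0; Hspb1 stays below 0 and Hspb6 above 0 in all 6 fits with a library left out, and Hspb7 runs from −0.55 to 0.15.

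As a group, 2 of the 10 genes had a positive and 8 a negative log2 fold change, where 50.9% of all genes tested were negative. The split rested on single libraries, with 6 positive and 4 negative without vehicle replicate 3, 5 and 5 without farnesol replicate 2, and 1 and 9 without vehicle replicate 2. The median was −0.07, beside −0.01 over all genes tested, and ran from −0.14 without vehicle replicate 2 to 0.04 without vehicle replicate 3. The 5 small heat shock genes summed to 6980, 5695 and 6368 CPM after farnesol, against 6826, 5279 and 6837 CPM after vehicle, and took 89.7% to 91.2% of the counts of the 10 genes in every library. Replicate 2 was lowest in both groups.

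The mean deviation of the 10 genes from their 6-library means, in log2 CPM, was −0.09, 0.06 and −0.04 after farnesol, against 0.17, −0.33 and 0.22 after vehicle. Hspa1b weighs heavily in these means, at −1.83 in vehicle replicate 2 from 6 counts. The median deviations were 0.02, −0.07 and −0.02 after farnesol, against 0.16, −0.18 and 0.18 after vehicle, which turns the sign of farnesol replicates 1 and 2. Vehicle replicate 2 was below its gene mean in 9 of 10 genes, the exception being Hspb7. Vehicle replicate 2 also had the lowest summed macrophage markers, 85.8 CPM against 107.75 to 142.6 CPM after farnesol and 140.1 and 213 CPM in the other vehicle libraries (7 markers, none at 0). Its summed adipocyte markers, at 97.03 CPM, were likewise below the 173 to 266 CPM of the other 5 libraries. Other marker sums went the other way. Vehicle replicate 2 had the highest summed fast fibre markers of the 6 libraries, at 157520 CPM. It was also highest for smooth muscle and pericyte markers (141.9 CPM) and for satellite cell markers (9.30 CPM). The part of any of these markers in the chaperone values was not tested.

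**Figure D4:**
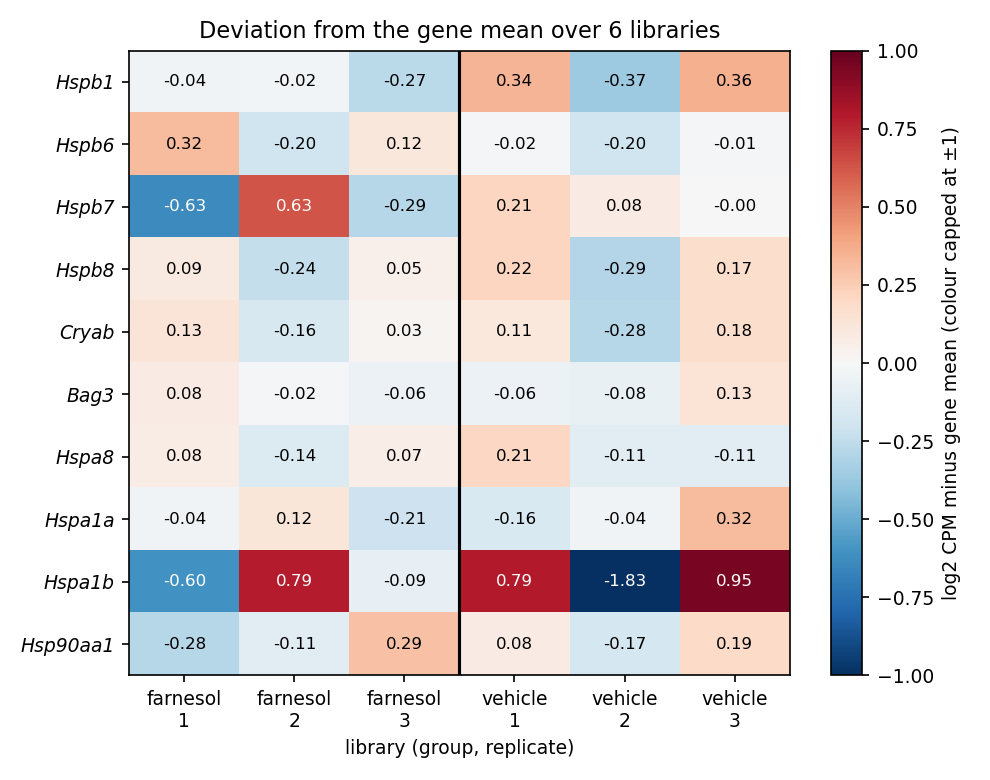
Log2 CPM of each gene in each library minus its mean over the 6 libraries, farnesol replicates left and vehicle replicates right, red above and blue below the mean, with colour capped at 1 and the values printed. Vehicle replicate 2 is blue for 9 of 10 genes, and Hspb7 runs from −0.63 to 0.63 within the farnesol group.

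Of the 45 pairs among the 10 genes, 32 correlated positively over the 6 libraries, with a median Pearson r of 0.33. Over all pairs of the 4250 tested genes of at least 20 CPM the median was 0.00 (0.0025). At that same cut-off, the 28 pairs of 8 of the 10 genes also had a median of 0.33. The closest pair was Hspb8 and Cryab (r = 0.96, exact permutation p = 0.00694, adjusted over the 45 pairs 0.312; rho = 0.83, exact permutation p = 0.0583, adjusted 0.578). Without farnesol and vehicle replicate 2, the farthest from the Hspb8 median, its r was 0.60. Hspa1b and Hspb1 followed (r = 0.80, exact permutation p = 0.0514, adjusted 0.66; rho = 0.94, exact permutation p = 0.0167, adjusted 0.375), with r = 0.85 without farnesol replicate 1 and vehicle replicate 2. Hspb6 and Hspb7 ran opposite (r = −0.89, exact permutation p = 0.0181, adjusted 0.406; rho = −0.94, exact permutation p = 0.0167, adjusted 0.375), with r = −0.65 without farnesol replicates 1 and 2. No pair passed an adjusted p of 0.05 in these exact permutation tests, for which 6 libraries allow no p below 0.00278. Unadjusted, 2 of the 45 pairs had a Pearson p under 0.05, about what that threshold lets through with no relation. The shares of all gene pairs with a positive r or such a p were not computed.

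Among 4138 genes of at least 20 CPM outside every list, the mean log2 CPM of the 10 genes was most like Nup62, a nuclear pore protein (r = 0.98 over the 6 libraries), and Mknk2, a kinase of the translation factor eIF4E (r = 0.98). Next came the imprinted noncoding RNA Peg13 (0.97), the basement membrane proteoglycan perlecan, Hspg2 (0.96), and Ankrd2, an ankyrin repeat protein of stretched muscle (0.96). Ankrd2 stood at 196, 309 and 181 CPM after farnesol, against 294, 113.5 and 348 CPM after vehicle. These were picked as the highest r of many and carry no test, and the mean they were matched to is the one in which Hspa1b weighs heavily.

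Of 80 further genes in lists of chaperones, cochaperones and their regulators, 77 were tested and 0 passed in edgeR over all genes tested, with 1 unadjusted p under 0.05 and 6 genes with separate groups. Over all genes tested these shares were 3.01% and 8.82%, so neither count of the 77 exceeds the background, and the separate genes named among them are descriptions. Their median log2 fold change was −0.02, with 33 positive and 44 negative.

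Hspb2, Hspb3 and Hspb11, the 3 tested genes listed by symbol as further small heat shock genes, all had positive values. Their median was 0.27, and 0 of 3 passed. Hspb3, a muscle small heat shock protein that pairs with HSPB2, stood at 27.9, 28.0 and 23.7 CPM after farnesol, against 25.5, 15.6 and 17.7 CPM after vehicle (log2 fold change 0.44, SE 0.22). Hspb2 stood at 44.7, 36.8 and 46.1 CPM after farnesol, against 36.4, 38.1 and 30.9 CPM after vehicle (0.27, SE 0.18). The groups overlapped in each.

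Among the 12 other HSP70 and HSP110 genes 0 passed and the median was −0.04. Hspa5, the HSP70 of the endoplasmic reticulum, had a log2 fold change of −0.15 (SE 0.15), Hspa4 of −0.19 (SE 0.16), and the low genes Hspa4l and Hspa12b of 0.72 (SE 0.48) and −0.71 (SE 0.87). Among the 3 other HSP90 genes 0 passed. Hsp90ab1, the constitutive cytosolic HSP90, stood at 2252, 2607 and 2996 CPM after farnesol, against 3150, 2703 and 2832 CPM after vehicle (−0.14, SE 0.16). The mitochondrial Trap1 had −0.04 (SE 0.17) and Hsp90b1 of the endoplasmic reticulum 0.00 (−0.0014, SE 0.18).

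J-domain proteins, which pass clients to HSP70, had 0 of 16 past the threshold and a median of 0.04. Dnaja3, the mitochondrial one, was separate between groups at 40.5, 31.0 and 38.5 CPM after farnesol, against 28.9, 27.6 and 30.2 CPM after vehicle (log2 fold change 0.34, SE 0.19). Dnaja4 had 0.26 (SE 0.17), Dnajb5 0.25 (SE 0.21) and Dnajb2 −0.27 (SE 0.20). Chaperonins, which fold actin and tubulin or mitochondrial proteins, had 0 of 10 past the threshold and a median of −0.02. In this list Cct7 was separate between groups, at 192 to 200 CPM after farnesol and 209 to 232 CPM after vehicle (−0.17, SE 0.14), while Cct4 (−0.26, SE 0.20), Cct3 (0.21, SE 0.22) and Cct6a (−0.08, SE 0.16) overlapped.

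Of the 21 cochaperones of HSP70 and HSP90, 0 passed and the median was −0.05. Fkbp5, a glucocorticoid-induced HSP90 cochaperone, held the 1 unadjusted p under 0.05. It was separate between groups at 33.7, 49.0 and 25.7 CPM after farnesol, against 49.4, 60.7 and 59.1 CPM after vehicle (log2 fold change −0.64, SE 0.21, edgeR adjusted p = 0.99999). Bag1, a nucleotide exchange factor of the BAG3 family, was separate between groups at 89.8, 103.8 and 87.9 CPM after farnesol, against 83.6, 77.6 and 77.2 CPM after vehicle (0.24, SE 0.15). Its relative Bag5 was too, at 16.6, 13.8 and 14.4 CPM after farnesol, against 10.5, 12.75 and 11.1 CPM after vehicle (0.38, SE 0.25). The myosin chaperone Unc45b had −0.20 (SE 0.15).

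The list of heat shock transcription factors, which also holds their regulator Hsbp1, gave 0 of 4 past the threshold and a median of 0.13. Hsf1, the factor of the acute heat shock response, stood at 30.3, 16.6 and 24.0 CPM after farnesol, against 16.1, 22.0 and 22.4 CPM after vehicle (log2 fold change 0.23, SE 0.24). Hsbp1, which binds and restrains HSF1, was separate between groups at 105.9, 77.5 and 80.7 CPM after farnesol, against 66.1, 71.0 and 74.0 CPM after vehicle (0.32, SE 0.16). Hsf2 had 0.03 (SE 0.19) and Hsf4 −0.14 (SE 0.43). Of the 13 other inducible heat shock targets 0 passed and the median was 0.03, among them Hspa4l and Hsp90ab1 from the lists above, Serpinh1, the collagen chaperone HSP47, at −0.18 (SE 0.23) and the cochaperone Stip1 at −0.12 (SE 0.18).

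Partners of BAG3 in chaperone-assisted autophagy gave 0 of 8 past the threshold and a median of −0.10. The client filamin C, Flnc, stood at 170.5, 258.5 and 206 CPM after farnesol, against 292, 201 and 308 CPM after vehicle (log2 fold change −0.34, SE 0.18). The autophagy receptor p62, Sqstm1, stood at 438, 389 and 381 CPM after farnesol, against 483, 376 and 567 CPM after vehicle (−0.24, SE 0.16). In both, as in Hspb1, vehicle replicates 1 and 3 were highest and vehicle replicate 2 lay among or below the farnesol libraries. The autophagosome proteins Map1lc3b and Gabarapl1 had 0.12 (SE 0.16) and −0.14 (SE 0.18).

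Immediate early genes, which rise within minutes of stress or handling, gave 0 of 11 past the threshold and a median of 0.00 (0.0016). Jun had an unadjusted p under 0.05 (edgeR adjusted p = 0.99999), with 128, 159 and 141 CPM after farnesol, against 208, 157 and 204 CPM after vehicle (log2 fold change −0.41, SE 0.16). The groups overlapped in Jun, as in Atf3 (0.75, SE 0.41), Btg2 (−0.53, SE 0.30) and Egr1 (0.55, SE 0.35). Jun was the 1 of the 11 with such a p in edgeR, where 3.01% of all genes tested had one.

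**Figure D5:**
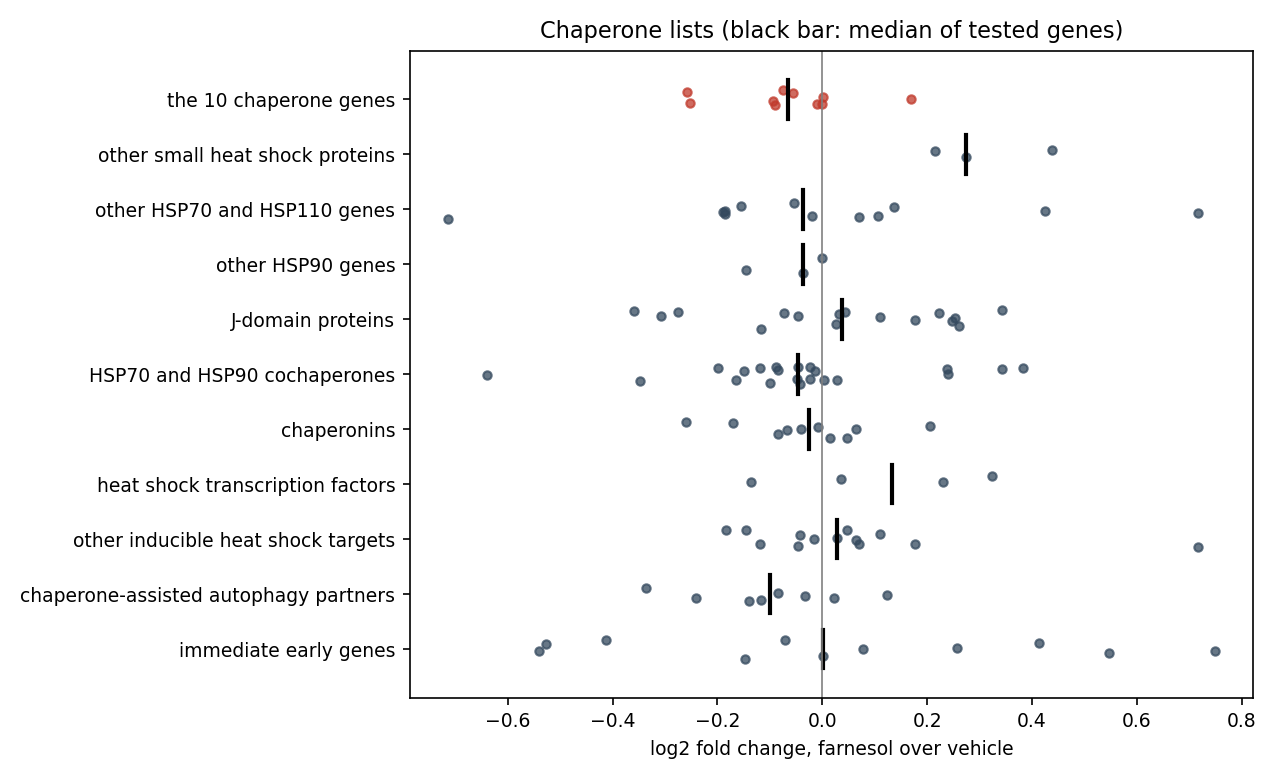
Log2 fold change, farnesol over vehicle, of every tested gene in the 10 genes described (red) and in the other chaperone lists and the immediate early genes (dark), with the median of each list as a black bar. No gene shown passed over all genes tested, and list medians run from −0.10 for partners of chaperone-assisted autophagy to 0.27 for the list of further small heat shock genes.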

How the data were processed

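Total RNA (500 ng) was made into Lexogen QuantSeq libraries, which read tags near the 3′ end, per the labels' protocols. The authors deposited 1 table for each library, of untransformed counts by symbol. The submitters' processing notes name Bowtie2, bedtools and mm10; for versions, annotation, strand, multi-mapping and copied reads nothing is given in the sources used here. Each table held 23282 features; lines of the same symbol were summed, which touched 0 of the 10 genes.

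Counts were tested with edgeR 4.0.16 under R 4.3.3 (low genes dropped with filterByExpr on the groups, TMM, glmQLFit with robust = TRUE, glmQLFTest, Benjamini-Hochberg over 11674 genes; common biological coefficient of variation 25.7%) and tested on simulated data first. The SE was taken as the size of the log2 fold change divided by F's square root; intervals are 95% on the fit's degrees of freedom. log2 CPM used a prior count of 2. Correlations used exact two-sided permutation over libraries. The alternatives were DESeq2 1.42.0 (size factors, Wald test), limma 3.58.1 voom, other filters, Rn45s left out, Hspa1a and Hspa1b summed, a length offset, a replicate block and leaving out each library.

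The 10 genes and the lists were chosen with earlier results of these data known. The rule for named genes took the 10 genes, up to 4 of smallest p per chaperone list, and the 5 genes of at least 20 CPM most like their mean. Positions follow RefSeq on GRCm38.p6, the same chromosomes as mm10; transcript lengths are GENCODE vM21, found for 96.3% of tested genes.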

Additional observations from a re-analysis of the deposited data

How the results depend on the processing

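No chaperone gene, of the 10 or of the further lists, passed an adjusted p of 0.05 under any of the 15 alternatives. Over all genes, edgeR called 0, and so did DESeq2 (smallest adjusted p = 0.0824) and limma-voom (0.565); edgeR without a filter called 13 of 16624, and leaving out 1 library gave 0 to 3 calls, with 3 without vehicle replicate 2. The median pairwise r of 0.33 was 0.14 without the 2 libraries farthest from the median of the first-listed gene of each pair. The cause was not tested. Hspa1b, at −0.26 the largest in size of the 10, turned to 0.043 with limma-voom; the cause was not tested. Hspa8, near 0, was −0.00024 with the length offset. With 1 library left out the log2 fold change ran from −0.19 to 0.063 for Hspa1a, −0.77 to 0.15 for Hspa1b, −0.053 to 0.12 for Hspa8, −0.24 to 0.062 for Hsp90aa1, −0.55 to 0.15 for Hspb7, −0.22 to 0.020 for Hspb8, −0.14 to 0.078 for Cryab and −0.044 to 0.069 for Bag3. Hspb1 (−0.45 to −0.13) and Hspb6 (0.04 to 0.29) kept their sign in all 15; with the length offset Hspb1 was −0.35 (edgeR adjusted p = 0.999). The replicate block called 0 genes and turned Bag3 to 0.00069. Deviations of same-numbered libraries correlated across genes at 0.159, 0.216 and 0.0886, so not every pair exceeded 0.1. Every library still correlated best with its own number. With each group centred on its mean these correlations are tied to each other, so they cannot decide whether libraries were paired. The numbers are those of the sample titles. The headers of the counts carry a different numbering, in which some numbers occur in both groups and some in only 1 group. Hspa1b had the fewest counts of the 10 (6 to 62 per library) and the highest biological coefficient of variation (48.7%, against 14.3% to 24.5% in the others); the part of each in its wide interval was not tested.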
